A study of Mus musculus with 45 samples.

Results

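Of 184964 accessible regions (peaks) measured in mouse embryonic stem cells, 1200 lost accessibility within 2 h when SOX2 was degraded and kept it for 2 h when OCT4 was degraded. They were chosen by measured values, from the mean CPM (each count divided by the library total outside mitochondrial peaks, times 1000000) of the untreated and 2 h libraries of both lines. A peak had to reach a mean of at least 4 CPM in untreated cells of both lines, which 51464 peaks did and which are called eligible below. It then had to keep at most 0.5 of that level 2 h after SOX2 loss and at least 0.8 of it 2 h after OCT4 loss. The 1200 member peaks are 2.33% of the eligible peaks and 0.649% of all peaks. By the mirrored rules 2414 eligible peaks were lost at 2 h in both lines and 659 only after OCT4 loss.

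SOX2 is an HMG-box transcription factor that bends DNA, and OCT4 (the product of Pou5f1) is a POU-domain factor. Both count as pioneer factors, which can bind sites wrapped in nucleosomes and help to open them, and in pluripotent cells they often bind side by side on a composite element made of a SOX part and a POU part. NANOG is a homeodomain factor of the same network that is not classed as a pioneer. ATACseq reads out open DNA: the Tn5 transposase inserts where DNA is accessible, so more fragments in a region mean a more open region.

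The libraries come from 3 lines of mouse embryonic stem cells in which the protein named carries an FKBP tag that the small molecule dTAG-13 directs to the proteasome. The SOX2-FKBP and NANOG-FKBP cells derive from the E14 line and the OCT4-FKBP cells from the V6.5 line, so SOX2 and OCT4 loss were compared in lines of different parents. All cells grew without serum, with LIF and inhibitors of MEK and GSK3 (2i/LIF). Treated cells received dTAG-13 at 500 nM for 0.5, 1, 2, 6 or 24 h (SOX2-FKBP) or for 2, 6 or 24 h (the other lines), and untreated cells (NT) received DMSO. Each SOX2-FKBP and OCT4-FKBP group has 2 libraries, and NANOG-FKBP has 2 at NT and 3 at each treated time. The tagged E14 lines were grown from picked clones, and the amount of tagged protein left was not measured in these libraries. The methods speak of duplicates and, for SOX2, of a further independent clone, but neither they nor the labels tie a library to a culture or clone, so the p-values measure the spread between these libraries, which may be technical.

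The 31 libraries hold between 1817191 and 17575631 counts in peaks, with a median of 9496229. The shallowest 3 are the treated replicate 2 libraries of NANOG-FKBP, with 1817191, 3272168 and 2767190 counts, and results for that line are given with and without them. Of 8 embryonic stem cell marker genes, 7 had a promoter peak of at least 4 CPM in NT cells of every line, among them Nanog, Esrrb and Klf4, while Pou5f1 had no peak summit within 500 bp of its start. Of 6 fibroblast markers 2 or 3 reached 4 CPM depending on the line, with Lum at 0, and none of 6 liver, blood and heart muscle genes had a promoter peak. In bulk libraries, fewer cells with an open region and less opening per cell cannot be told apart.

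The sequences of some members come first. Windows in the first 2 sets were printed only if they held a SOX pattern or a SOX-POU composite, so their capitals follow from the choice. Of the 1200 members 539 held no SOX pattern in the 200 bp around the summit. The first set holds the 6 members with the lowest level left 2 h after SOX2 loss. Each is 160 bases of the mm10 reference (GRCm38) around the peak summit, on the plus strand, read 5′ to 3′, and capitals mark the SOX pattern, CATTGT or CTTTGT on either strand (so ACAATG or ACAAAG on the printed one). The window near Cdh13, which encodes a cadherin, lies at chr8:118777568-118777727 in an intron of that gene. The one whose nearest gene is Trpc6, a cation channel, lies between genes at chr9:8463043-8463202. The Auts2 window is intronic, at chr5:131563906-131564065 in a gene linked to neural development. The window nearest Kitl, the ligand of the KIT receptor, is intergenic at chr10:100164637-100164796. Dock2, a Rac activator of blood cells, holds its window in an intron at chr11:34739080-34739239, and the one nearest Cbln4, a secreted synaptic protein, is intergenic at chr2:171879302-171879461.
Cdh13: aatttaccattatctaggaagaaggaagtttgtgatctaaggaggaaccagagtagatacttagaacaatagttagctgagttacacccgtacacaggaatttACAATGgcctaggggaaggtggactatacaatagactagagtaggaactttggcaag
Trpc6: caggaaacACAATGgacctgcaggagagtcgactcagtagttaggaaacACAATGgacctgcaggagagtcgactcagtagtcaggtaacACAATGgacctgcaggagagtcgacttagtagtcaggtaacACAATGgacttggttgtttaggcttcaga
Auts2: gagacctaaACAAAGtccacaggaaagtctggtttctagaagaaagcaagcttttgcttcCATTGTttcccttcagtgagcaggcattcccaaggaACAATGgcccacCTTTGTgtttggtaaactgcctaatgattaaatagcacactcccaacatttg
Kitl: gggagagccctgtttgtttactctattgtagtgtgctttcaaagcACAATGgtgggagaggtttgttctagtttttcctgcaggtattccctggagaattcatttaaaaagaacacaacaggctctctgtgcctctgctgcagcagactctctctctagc
Dock2: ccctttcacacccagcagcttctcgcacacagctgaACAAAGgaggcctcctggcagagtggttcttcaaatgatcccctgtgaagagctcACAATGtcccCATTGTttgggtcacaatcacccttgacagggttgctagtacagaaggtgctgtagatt
Cbln4: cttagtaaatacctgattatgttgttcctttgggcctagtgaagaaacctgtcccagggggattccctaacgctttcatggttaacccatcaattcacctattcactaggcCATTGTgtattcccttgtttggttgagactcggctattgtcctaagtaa

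These 6 windows hold 1 to 4 SOX patterns each. In the Trpc6 window a short sequence recurs, with 4 patterns and 41 bases from each start to the next. The Auts2 window also holds 4, spaced 51, 36 and 12 bases between starts, and the Dock2 window holds 3, of which the last 2 start 10 bases apart. The Cdh13 and Cbln4 peaks fell into the same group of similar sequences as the third set, but hold no ZIC or ESRRB pattern near their summits.

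The second set shows members with a SOX pattern near genes that were listed for their part in pluripotency, lineage choice or signalling. The Sall4 window is intergenic at chr2:168769382-168769541, next to a zinc-finger gene of embryonic stem cells. The Sox13 window is intronic at chr1:133397811-133397970 in a gene of the SOX family itself. The Wwtr1 window lies in an intron at chr3:57558908-57559067, and Wwtr1 encodes TAZ, a coactivator of the Hippo pathway. The Foxd3 window lies in an annotated intron at chr4:99675275-99675434, near a forkhead gene of the primed epiblast.
Sall4: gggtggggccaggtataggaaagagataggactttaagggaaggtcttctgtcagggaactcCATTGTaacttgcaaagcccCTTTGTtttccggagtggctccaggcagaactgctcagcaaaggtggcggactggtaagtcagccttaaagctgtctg
Sox13: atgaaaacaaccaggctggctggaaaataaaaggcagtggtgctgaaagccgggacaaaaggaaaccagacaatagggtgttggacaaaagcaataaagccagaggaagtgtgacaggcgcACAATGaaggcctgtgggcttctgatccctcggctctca
Wwtr1: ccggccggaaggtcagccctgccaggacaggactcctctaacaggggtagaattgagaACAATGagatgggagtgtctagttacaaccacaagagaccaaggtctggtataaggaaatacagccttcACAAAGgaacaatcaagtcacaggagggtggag
Foxd3: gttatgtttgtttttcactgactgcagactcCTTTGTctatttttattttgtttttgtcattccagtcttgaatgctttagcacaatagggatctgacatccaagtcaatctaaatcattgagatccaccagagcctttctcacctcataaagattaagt

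The third set shows 2 copies of a sequence that recurs through the members. Each is 200 bases of mm10, printed on the strand that reads in the same direction, and capitals mark 3 stretches: CAGCAGG, a pattern of the ZIC zinc-finger factors, then the heptamer ACAATAG, then AAGGTCA, the pattern of the orphan nuclear receptor ESRRB. The first is intergenic, nearest Mmrn1, at chr6:61047759-61047958 on the minus strand, and the other is intergenic, nearest Mrpl15, at chr1:4660227-4660426 on the plus strand.
Mmrn1: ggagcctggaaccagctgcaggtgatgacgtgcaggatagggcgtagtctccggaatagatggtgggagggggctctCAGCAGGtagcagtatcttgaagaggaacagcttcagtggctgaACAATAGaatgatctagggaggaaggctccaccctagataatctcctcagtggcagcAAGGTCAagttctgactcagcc
Mrpl15: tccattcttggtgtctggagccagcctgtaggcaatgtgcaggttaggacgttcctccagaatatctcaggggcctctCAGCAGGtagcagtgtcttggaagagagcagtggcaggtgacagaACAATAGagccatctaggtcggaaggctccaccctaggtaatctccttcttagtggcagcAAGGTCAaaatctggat

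In 300 bp around their summits the Mmrn1 and Mrpl15 copies are 77.8% identical over an aligned stretch of 252 bases. The heptamer differs from the SOX pattern ACAATG in its last letters and was picked after the sequences had been seen, so its counts below are a description.

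Accessibility fell early and kept falling in SOX2-FKBP cells. In the text that follows, a share of NT is a library's CPM divided by the mean CPM of the NT libraries of that line. Since the NT and 2 h libraries of SOX2-FKBP and OCT4-FKBP chose the members, shares in those lines are a description with no test. The median member stood at 51.1% and 62.3% of NT in the 2 libraries at 0.5 h, at 41.0% and 49.3% at 1 h, and at 34.1% and 39.5% at 2 h. It stood at 26.3% and 30.0% at 6 h and at 19.5% and 21.1% at 24 h. As a mean of library medians this is 56.7% ± 7.92 at 0.5 h and 20.3% ± 1.17 at 24 h (SD, n = 2). Replicate 1 was the lower of the 2 libraries at each time. At 0.5 h, 367 members (30.6%) were already at or under 50% of NT, and 2 stood above 100%. By 24 h 1157 members were at or under 50% and 750 at or under 25%. Of eligible peaks 3.92% were at or under 50% at 0.5 h and 15.9% at 24 h, and of the peaks lost in both lines 53.1% and 98.1%. At or under 25% at 24 h were 6.58% and 71.4% of these 2 sets. Both treated libraries lay below both NT libraries for 1120 members (93.3%) at 0.5 h, 1198 (99.8%) at 6 h and 1196 (99.7%) at 24 h. Of all eligible peaks 23.4%, 28.7% and 35.4% did so, and of the peaks lost in both lines 96.2%, 100% and 99.8%.

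After OCT4 loss the same peaks were above their NT level first and below it later. The median member stood at 112% and 124% of NT at 2 h, the time the rule used, and at 91.3% and 112% at 6 h. At 24 h it stood at 40.7% and 64.7%, so that the late libraries lay apart from the earlier ones although the 2 replicates differed (52.7% ± 17, SD, n = 2). By then 545 members (45.4%) were at or under 50% of NT and 282 (23.5%) were at 80% or more, against 21.3% and 59.4% of eligible peaks. Both 24 h libraries lay below both NT libraries for 822 members (68.5%), against 39.6% of all eligible peaks. The median over all eligible peaks was 91.9% ± 3.51 at 24 h (mean of library medians, SD, n = 2).

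NANOG loss left most of the level in place. The library medians were 79.0%, 84.9% and 75.2% at 2 h, 79.8%, 91.3% and 77.6% at 6 h, and 80.7%, 86.2% and 75.2% at 24 h. The shallow library was the highest at every time, and there was no trend with time larger than the spread between libraries. Members differed widely among themselves: at 24 h 229 (19.1%) were at or under 50% of NT and 413 (34.4%) stood above 100%. Of eligible peaks 4.18% and 51.5% did so, and of the peaks lost in both lines 12.7% and 44.6%.

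**Figure D1:**
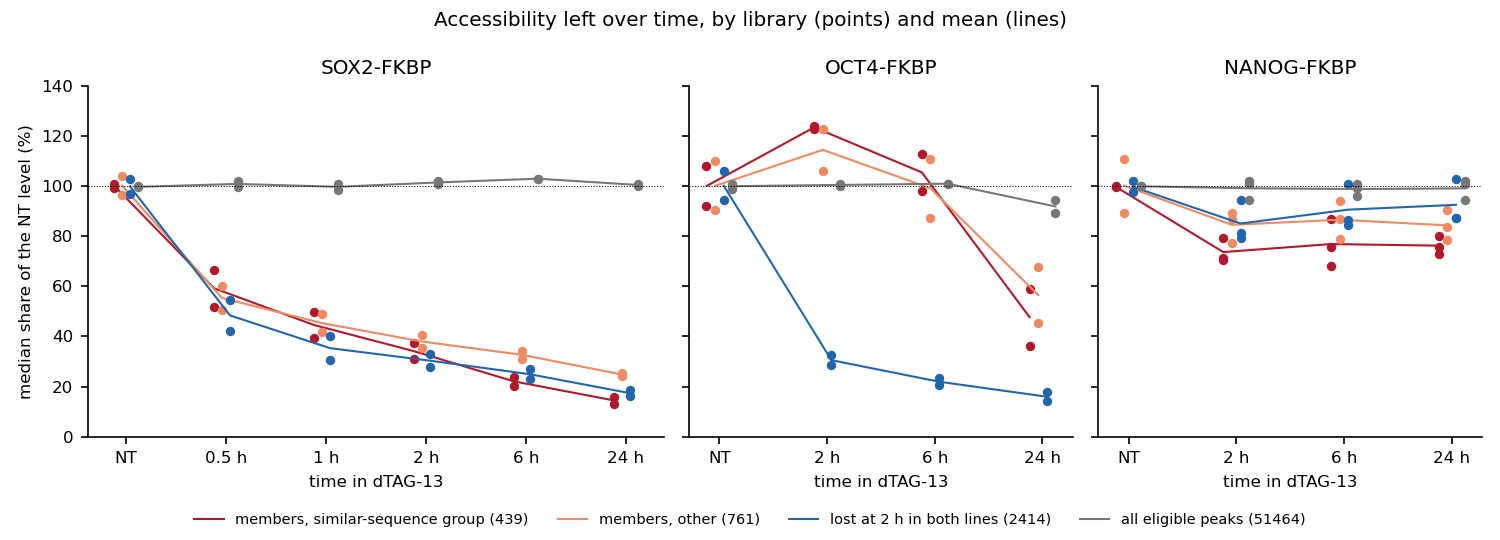
Median share of the NT level (percent, vertical axis) against time in dTAG-13 (horizontal axis) in the 3 lines, with 1 point per library and lines through the means, for members in the similar-sequence group (439), other members (761), peaks lost at 2 h in both lines (2414) and all eligible peaks (51464). Members fell from 0.5 h on in SOX2-FKBP, and by 24 h in OCT4-FKBP, to 36.4% and 59.0% (similar-sequence group) and 45.2% and 67.9% (others). In NANOG-FKBP both sets lay between 68.2% and 94.0%.

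The choice rests on few counts per peak, so it was read in libraries that did not make it. In the SOX2-FKBP NT libraries the median member had 9.78 and 10.2 CPM. When the rule was applied to replicate 1 alone, 1269 peaks passed. In replicate 2 these stood at a median of 42% of NT 2 h after SOX2 loss and 111% after OCT4 loss, and 758 of them (59.7%) met both ratios again, against 2.22% of the peaks eligible in replicate 1. The reverse choice in replicate 2 also gave 1269 peaks, which stood at 36.7% and 122% in replicate 1, and 874 of them (68.9%) passed again against 2.87%. Requiring both ratios in each replicate left 728 members.

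Close to the thresholds the peaks kept and the peaks left out had the same ratios after rounding. The 2 members just inside the SOX2 ratio, in an intron of Pth1r and at the promoter of Rell1, stood at 50% and 49.9%, and the 2 eligible peaks just outside it, in introns of Ldlrad3 and Fam49b, both at 50%. The 4 peaks on either side of the OCT4 ratio, near Celf2, Scn3a, Clic5 and Cops8, all rounded to 80%.

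**Figure D2:**
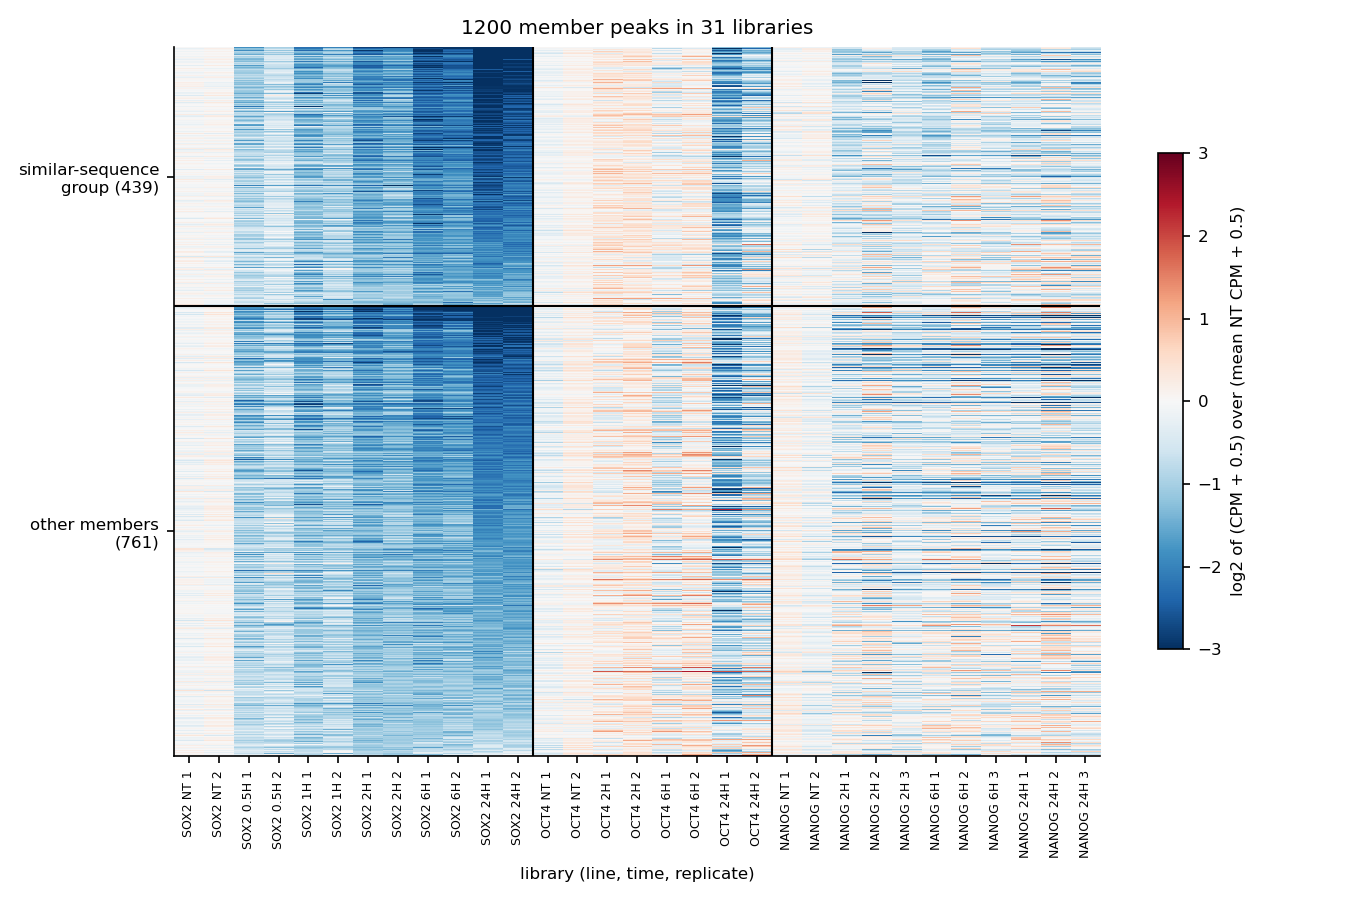
Each row is 1 of 1200 members and each column 1 of 31 libraries, grouped by line, time and replicate. Colour gives log2 of (CPM + 0.5) over (mean NT CPM of the line + 0.5), with blue below NT and red above it. The similar-sequence group of 439 is above the line and the other 761 below. The SOX2-FKBP columns turn blue from 0.5 h, while the OCT4-FKBP columns do so at 24 h.

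A large part of the members fell into 1 group linked by similar sequence. When the 300 bp around each summit were aligned to each other (at least 100 bp aligned, E-value at most 1e-10), 488 members fell into 11 groups of similar sequence, the largest with 439 members (36.6%) and the next with 22 and 9. Identity within the alignments had a median of 81.6%. Copies of the largest group were 2.73% of the eligible peaks, 12.2% of the peaks lost in both lines and 0.759% of those lost only after OCT4. The annotation used here names no repeat families, so the group is described by its letters. Soft-masked repeat letters made up a median of 77.5% of the 200 bp around the summits of these members, 10.0% in the other members and 3.0% in all eligible peaks. Copies share sequence with other copies and are not independent of each other. The authors kept reads with a mapping quality of at least 10. How many reads of each copy that filter removed was not tested.

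The copies were lost to different degrees, and more often with the heptamer in this set, which was built from the members. Of the 1403 eligible copies, 870 (62.0%) stood at or under 50% of NT 2 h after SOX2 loss, against 7.24% of the eligible peaks that are no copies. The heptamer ACAATAG, on either strand, was in 785 copies, of which 70.4% were at or under 50% and 41.7% were members. In the 618 copies without it these shares were 51.3% and 18.1%. These ratios were used by the rule and carry no test. Copies were found by their likeness to members, 439 of the 1403 are members, and the heptamer was picked from such sequences. Since members stood at or under 50% by the rule, the choice raises these shares. Copies lost in both lines were 17.6% of those with the heptamer and 25.2% of those without it. The heptamer was in 74.5% of the similar-sequence members, 12.6% of the other members and 3.55% of all eligible peaks, counted in the 200 bp around the summit.

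The 3 stretches kept 1 order in these members. Among the 327 with the heptamer, the ZIC pattern came before it on the same strand in 232 of the 232 that held both, a median of 44 bases between starts. The ESRRB pattern came after it in 94 of 95, a median of 57 bases away. ZIC and ESRRB patterns started 98 to 106 bases apart in 92 of the 113 similar-sequence members with both (81.4%), in none of the 11 other members with both and in 31.1% of the 633 eligible peaks with both. This spacing was picked after the copies had been seen, and the 633 include the members. These shares are therefore a description and no test.

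SOX patterns were common in the other members and POU octamers were rare in all. In the 200 bp around the summit, SOX patterns were in 55.1% of members, against 24.0% of all eligible peaks and 28.1% of the eligible non-members outside promoters. The peaks lost in both lines had nearly the members' share, 52.5%, and those lost only after OCT4 had 25.2%. The share was 71.6% in the members outside the similar-sequence group and 26.4% inside it. These counts leave out the heptamer ACAATAG, which begins with ACAAT as the SOX pattern ACAATG does and was in 74.5% of the group. A low share of these 2 SOX patterns therefore does not show that the group lacks SOX sites. The octamer ATGCNAAT, the site of POU factors such as OCT4, was in 11 members (0.917%, 95% exact Clopper-Pearson interval 0.458% to 1.63%, counting error only). It was in 4.2% of eligible peaks, 15.7% of the peaks lost in both lines and 30.2% of those lost only after OCT4. The SOX-POU composite, a SOX-like and a POU-like stretch side by side that can overlap a SOX pattern, was likewise in 0.917% of members, with 11.4% in the peaks lost in both lines, 16.1% in those lost only after OCT4 and 1.98% in eligible peaks. Over whole peaks the octamer was in 10.1% of members against 13.2% of eligible peaks and the composite in 5.0% against 5.86%, so these differences were smaller there. A missing pattern says only that these letters are not in the window.

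Among the other patterns, ZIC was in 37.2% of members against 13.8% of eligible peaks, 68.3% within the similar-sequence group and 19.2% outside it. ESRRB was in 18.7% against 6.97%, 34.2% within the group and 9.72% outside it. The pattern of the insulator protein CTCF, AGGNGGC, was in 16.8% against 26.9%. GGGNGTGG, the pattern of KLF factors, was in 14.7% against 16%, with 2.73% in the group and 21.6% outside. The TEAD pattern GGAATG was in 15.5% of members against 12.6% of eligible peaks. The AP-1 pattern TGANTCA was in 7.42% against 5.93%, and the TFAP2 pattern GCCNNNGGC in 6.42% against 12.1%. The STAT pattern TTCNNGGAA was in 3.58% against 3.25%. The GATA pattern AGATAA was in 11.6% against 5.34%. The FOX pattern TGTTTAC was in 2.67% against 2.23%. All patterns were matched on both strands, and shares over peaks that resemble each other count similar sequence many times.

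**Figure D3:**
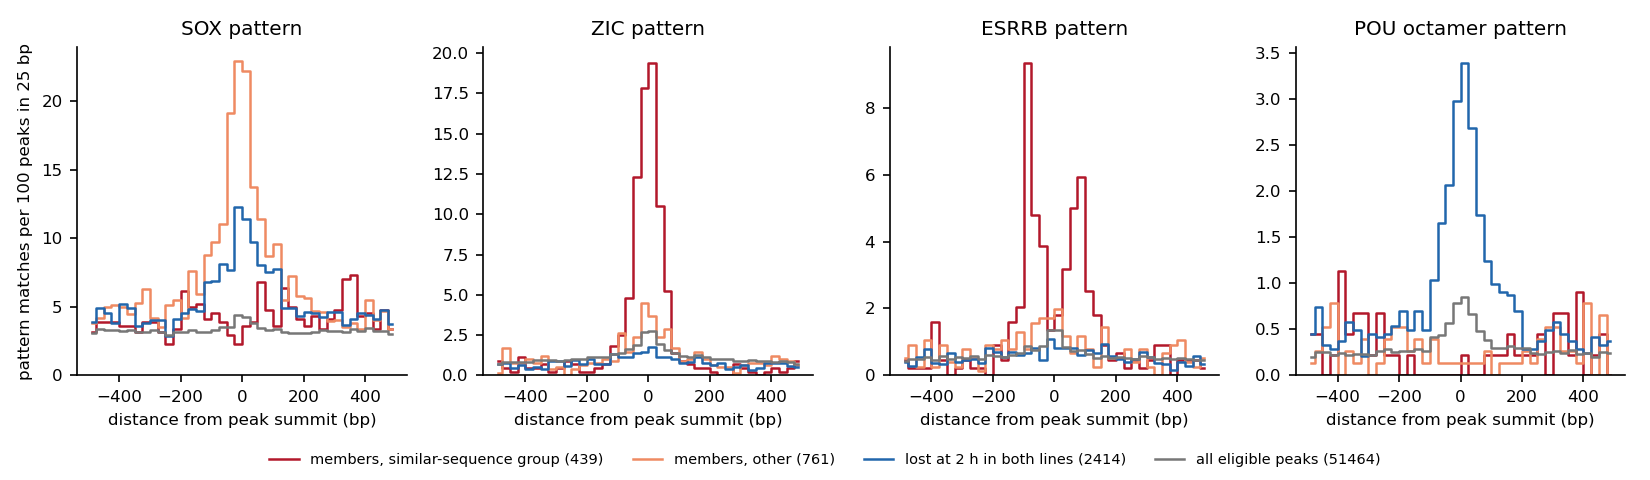
Pattern matches per 100 peaks in 25 bp bins (vertical axes) against distance from the peak summit in bp (horizontal axes) for SOX, ZIC, ESRRB and POU octamer patterns in 4 sets of peaks. SOX patterns peaked at the summits of the other members, with 77.4 matches per 100 peaks within 50 bp. ZIC patterns did so in the similar-sequence group, with 59.9.

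SOX patterns gathered at the summits of the other members, with 77.4 matches per 100 peaks within 50 bp of it and 18.1 per 100 peaks per 100 bp at 400 to 500 bp from it, a ratio of 4.28. In the similar-sequence group this ratio was 0.824 for SOX and 25 for ZIC. In the peaks lost in both lines it was 2.38 for SOX and 2.14 for ZIC. The octamer was thinner at member summits than further out, with 5 matches near and 32 far and a ratio of 0.312 per base pair, whereas in the peaks lost in both lines the ratio was 6.88. Among the other members, those with more SOX patterns had less left at 0.5 h in each replicate. The medians were 54.1% and 63.6% of NT in the 216 with none, 50.7% and 61.5% in the 289 with 1, 47% and 56.9% in the 182 with 2, and 42.8% and 53.7% in the 74 with 3 or more. At 24 h they were 24.3% and 27.3% with none and 20.2% and 21.2% with 3 or more. No test was made of this order, because these shares use the NT libraries that chose the members.

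Most members lay far from promoters. Intergenic positions held 633 (52.8%) and introns 483 (40.2%), while 40 (3.33%) were within 500 bp of an annotated start, against 30.5% of eligible peaks. A further 37 were in other exons and 7 in coding exons. The peaks lost in both lines lay much alike, with 51.7% intergenic, 43.0% in introns and 2.9% within 500 bp of a start. The median distance to the start of a protein-coding gene was 28931 bp, against 6322 bp for eligible peaks and 32320 bp for the peaks lost in both lines. It was 84409 bp in the similar-sequence group, of which 319 of 439 were intergenic, and 18677 bp in the other members. Members were spread over the genome, with 127 of them (10.6%) within 50 kb of another.

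The tests below compare libraries that the rule did not use. Each is an edgeR quasi-likelihood test without a replicate block, over all peaks with enough counts. Adjustment was by Benjamini-Hochberg over all of them, with a call at an adjusted p under 0.05. Counts from fits with a replicate block are given as an alternative. A log2 fold change is in edgeR's normalized scale, and its SE is approximate. Beside the main edgeR count of members in each comparison stands the share of all tested peaks called in the same direction. Counts from the alternatives, such as the replicate block, DESeq2 and left-out libraries, are given without that share. They show how far the member count moves and not how it compares with all peaks in that fit.

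In SOX2-FKBP cells the loss went on after the first hour. Between 0.5 and 1 h 0 of 1199 tested members were called lower and 0 higher by edgeR (0.0% and 0.0% of all peaks tested), and by DESeq2 also 0, while 220 members were lower and 2 higher at an unadjusted p under 0.05. Their median log2 fold change was −0.31. In data simulated for the 6 to 24 h step of this time course, edgeR recovered 12 of 100 changes of 1 on the log2 scale. Smaller changes can thus go uncalled, and 0 calls do not show that the loss paused. Between 1 and 6 h 186 members (15.5%) were lower and 0 higher, against 0.695% and 0.0567% of all peaks, with 1 member higher at an unadjusted p under 0.05 and 0 higher by DESeq2. The median was −0.6 against 0.01 over all peaks. At 1 h 752 members (62.7%) stood at or under 50% of NT, and the rule required the others to reach that level by 2 h. Part of the fall from 1 to 6 h thus follows from the choice, and its size is not independent of the rule. Of eligible peaks 1.8% and of the peaks lost in both lines 4.8% were called lower between 1 and 6 h. Between 6 and 24 h 39 members (3.25%) fell and 1 rose, against 1.1% and 0.466% of all peaks, with a median of −0.4. Of eligible peaks 2.38% and of the peaks lost in both lines 4.05% were called lower in this step, and the members' share lay between these. A fit with a replicate block gave 7, 367 and 122 lower calls in the 3 steps and 4 higher in the last. Without replicate 2 of 1 h 2 members were lower between 0.5 and 1 h. Leaving out 1 library gave between 1 and 6 h 111 without replicate 1 and 131 without replicate 2 of 1 h, and 58 and 50 without replicate 1 or 2 of 6 h. Between 6 and 24 h it gave 6 and 13 without replicate 1 or 2 of 24 h and 11 and 9 without replicate 1 or 2 of 6 h.

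More of the similar-sequence group than of the other members was called lower between 1 and 6 h. In that step 128 of its 439 members (29.2%) and 58 of the 760 others tested (7.63%) were called lower, with median log2 fold changes of −0.96 and −0.45. Its library medians were 20.4% and 23.8% of NT at 6 h and 13.1% and 15.9% at 24 h, below the 31.2%, 34.2%, 24.1% and 25.6% of the other members. At 0.5 h the order was the other way in both replicates, with 51.9% and 66.6% in the group and 50.7% and 60.0% in the others.

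The 3 members named for their fall between 1 and 6 h were copies from this group. The intergenic copy at chr7:145034056-145035159, 94477 bp from the start of Ccnd1 (cyclin D1), had 27.7 and 29.7 CPM at NT, 18.2 and 22.3 at 0.5 h, 16 and 15.7 at 1 h, 6.35 and 9.6 at 2 h, 2.92 and 3.09 at 6 h and 2.17 and 2.03 at 24 h. Both libraries of every treated time lay below both NT libraries, and those of 6 h below those of 1 h, with a log2 fold change of −2.39 (SE 0.23, adjusted p = 1.45e-07, edgeR). In OCT4-FKBP the copy held 19.6 and 16.8 CPM at NT and 19.9 and 16.3 at 6 h but 4.74 and 9.03 at 24 h. Copies nearest Vmn1r214, a vomeronasal receptor (chr13:23024378-23025381), and Dad1 (chr14:53439467-53440028) fell by 2.82 and 3.1 on the log2 scale between 1 and 6 h (adjusted p = 0.000341 and 0.0387, edgeR). The starts of these 2 genes lie 5435 and 814225 bp away. The printed Mmrn1 and Mrpl15 copies also fell in this step, with log2 fold changes of −1.17 and −0.9 (adjusted p = 0.000517 and 0.00901, edgeR).

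Between 6 and 24 h the largest fall by the rule for named peaks was 20203 bp from Ifng, the interferon gamma gene, where an intergenic peak (chr10:118460984-118462071) went from 2.92 and 3.09 CPM to 0.543 and 0.64 (log2 fold change −2.27, SE 0.4, adjusted p = 0.00149, edgeR). The same peak fell after OCT4 loss, from 15.2 and 21 CPM at NT to 9.77 and 12.4 at 6 h and 3.12 and 3.78 at 24 h (24 h against 6 h −1.63, SE 0.29, adjusted p = 0.000363, edgeR).

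An intron of Clstn2, a cadherin-like synaptic gene, held a member that was low after SOX2 loss and stayed near NT in the other lines (chr9:97476418-97477895). It had 25.6 and 29.7 CPM in untreated SOX2-FKBP cells, 10.1 and 11.5 at 0.5 h, 3.19 and 5.89 at 1 h, 2.63 and 4.2 at 2 h, 2.29 and 2.06 at 6 h and 0.543 and 0.427 at 24 h. Between 6 and 24 h it fell by 2.08 on the log2 scale (SE 0.47, adjusted p = 0.015, edgeR). In OCT4-FKBP it held 37.9 and 33.6 CPM at NT, 42 and 46.6 at 6 h and 38.2 and 44.8 at 24 h, and in NANOG-FKBP every treated library lay between 22.4 and 31.3 CPM against 31.7 and 25.7 at NT. The test of the difference between the lines in the 6 to 24 h change gave −2.06 (SE 0.48, adjusted p = 0.096, edgeR), which misses the threshold.

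The member called higher from 6 to 24 h lies on chromosome 18, 318786 bp from the start of Zfp608. It went from 15.2 and 13 CPM at NT to 5.74 and 4.49 at 6 h and back to 13.6 and 14.3 at 24 h of SOX2 loss (log2 fold change 1.5, SE 0.21, adjusted p = 0.000113, edgeR). In OCT4-FKBP it stood higher at every later time, from 10.5 and 4.01 CPM at NT to 40.8 and 42.4 at 24 h.

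After OCT4 loss most of the fall came between 6 and 24 h. In that step 566 of 1200 members (47.2%) were called lower and 5 higher, against 4.49% and 2.92% of all peaks tested and 10.6% lower among eligible peaks. Their median log2 fold change was −0.92, and 1090 had a negative sign. The similar-sequence group had 270 of 439 lower (61.5%, median −1.12) and the others 296 of 761 (38.9%, median −0.78). Of the peaks lost in both lines, which held 22.2% of NT at 6 h by the median, 5.72% were called. The count of lower members was 174 without replicate 1 of 24 h, the library with the lower median, and 358 without replicate 2 of 6 h. The replicate block gave 787 lower and 18 higher. Without replicate 2 of 24 h, or without either replicate of 6 h, 1 was higher.

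These peaks were named for their fall between 6 and 24 h of OCT4 loss. The intronic Dusp1 peak (chr17:26510931-26511798), in a gene for a MAP kinase phosphatase, held 22.6 and 24.1 CPM at NT, 18 and 20.6 at 2 h, 14 and 20.8 at 6 h, and 0.949 and 1.81 at 24 h (log2 fold change from 6 h −3.62, SE 0.41, adjusted p = 7.35e-07, edgeR). A peak in an intron of St3gal3, a sialyltransferase gene (chr4:117950212-117950660), went from 4.52 and 11.2 CPM at 6 h to 0.271 and 0.821. The one nearest Dcdc2c, a copy in an intron of Allc (chr12:28566940-28567951), went from 8.49 and 10.4 to 0.678 and 1.48. In all 3 both libraries of 24 h lay below both of NT.

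Among the 5 members called higher, the 3 named are near Got2, Oc90 and Fam19a4. The Oc90 peak (chr15:65903423-65904893), in an intron of an inner-ear matrix gene, went from 6.66 and 4.61 CPM at 6 h to 8.94 and 13.1 at 24 h of OCT4 loss (log2 fold change 1.0, SE 0.26, adjusted p = 0.0114, edgeR), while in SOX2-FKBP it went from 16.2 and 13.5 at NT to 5.11 and 5.02 at 24 h. The Got2 and Fam19a4 peaks had adjusted p of 0.0496 and 0.034 (edgeR), near the threshold.

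**Figure D4:**
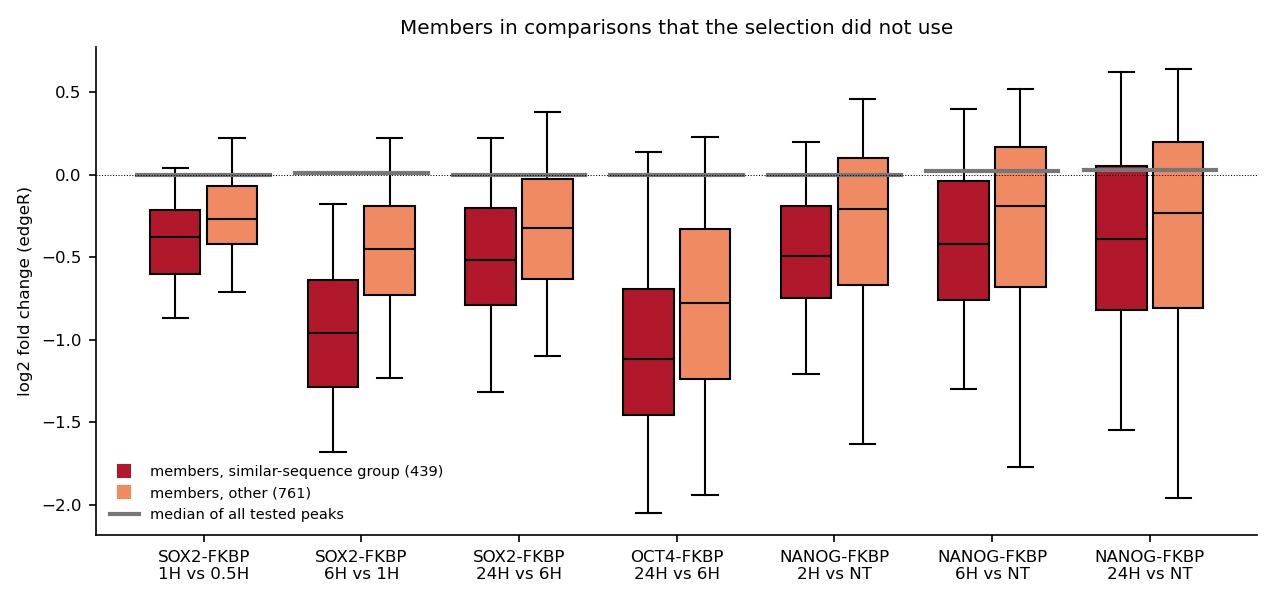
Log2 fold changes (vertical axis, edgeR) of members in 7 comparisons (horizontal axis), for the similar-sequence group and the other members. Boxes span the quartiles, the line in each is the median and whiskers reach from 5% to 95%. Grey bars mark the median of all peaks tested. The falls from 1 to 6 h of SOX2 loss (median −0.96) and from 6 to 24 h of OCT4 loss (median −1.12) were larger in the similar-sequence group than in the others (−0.45 and −0.78).

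Whether the change from 6 to 24 h differed between SOX2 and OCT4 loss was tested as an interaction. Members had a median difference of 0.46 (SOX2-FKBP minus OCT4-FKBP) against −0.02 over all peaks, which means a larger fall in OCT4-FKBP, where more was left at 6 h. By edgeR 1 member was called, with the larger fall in OCT4-FKBP, and 0 in the other direction, against 0.0222% and 0.0018% of all peaks. In the direction of that call 0.0661% of eligible peaks were called, near the share that 1 of 1200 members makes. At an unadjusted p under 0.05 there were 234 and 24 members, and DESeq2 called 7 and 0. The replicate block gave 78 and 5. The call was absent without either replicate of 6 h of SOX2-FKBP, replicate 2 of its 24 h, replicate 1 of 24 h or replicate 2 of 6 h of OCT4-FKBP, and without replicate 2 of 24 h of OCT4-FKBP 3 other members were called in its place. The called member is a copy in an intron of Gtf2i (chr5:134259953-134260537). It went from 1.25 and 1.22 CPM at 6 h to 0.869 and 2.03 at 24 h of SOX2 loss and from 7.39 and 11.4 to 1.36 and 1.15 for OCT4 (difference 3.08, SE 0.57, adjusted p = 0.0315, edgeR).

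NANOG loss lowered a minority of the members, as early as 2 h. Against NT, 123 members (10.2%) were called lower and 0 higher at 2 h, where 0.938% and 0.0162% of all peaks were, with 24 members higher at an unadjusted p under 0.05 and 0 by DESeq2. At 6 h 141 (11.8%) were lower and 1 higher, against 1.08% and 0.0367%. Leaving out replicate 1 of 6 h gave 2 higher there, and leaving out replicate 2 of 6 h or either NT replicate gave 0, while without replicate 3 of 2 h 1 was higher at 2 h. At 24 h 224 (18.7%) were lower and 13 higher, against 2.25% and 0.288%. Of the peaks lost in both lines 7.75%, 7.87% and 12.8% were lower at these times. The shares were 1.66%, 2.05% and 3.94% in eligible peaks and 5.77%, 7.44% and 14.9% in the peaks lost only after OCT4. The members' median log2 fold changes were −0.33, −0.28 and −0.29. Without the shallow libraries 100, 134 and 228 members were lower and 0, 1 and 11 higher. Leaving out replicate 1 of NT gave 43, 67 and 107 lower, and leaving out replicate 1 of the treated time 41, 73 and 143. Without replicate 3 of 24 h 135 were lower, and without replicate 2 of NT 0 were higher at 24 h. The other left-out libraries gave 6 to 8 higher at 24 h (replicates 1, 2 and 3 of 24 h and replicate 1 of NT). In the 2 parts of the members the shares called lower were 7.29% (similar-sequence group) and 12% (others) at 2 h and 18.5% and 18.8% at 24 h.

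Of the peaks named for their fall after NANOG loss, an intronic one in Rwdd4a (chr8:47543922-47544489) held 13.3 and 7.06 CPM at NT and 1.51, 0.667 and 0.821 after 2 h of NANOG loss (log2 fold change −3.09, SE 0.4, adjusted p = 1.33e-05, edgeR). It stayed between 0.352 and 1.73 CPM at 6 and 24 h, so no treated library overlapped NT. In SOX2-FKBP it went from 7.49 and 9.36 CPM at NT to 0.985 and 1.5 at 2 h, and in OCT4-FKBP from 5.39 and 8.14 at NT to 9.43 and 11.5 at 2 h and 1.22 and 4.27 at 24 h.

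A peak in an intron of Tox, itself an HMG-box gene (chr4:6970429-6970953), held 8.33 and 8.44 CPM at NT and 0.991, 0.704 and 0.74 after 6 h of NANOG loss (log2 fold change −3.25, SE 0.34, adjusted p = 1.46e-07, edgeR). An intronic Tnrc18 peak (chr5:142799242-142799555) went from 15.5 and 10.3 CPM to 2.04, 0.667 and 1.44 at 2 h, and one nearest Serp2 (chr14:76654708-76655228) from 6.14 and 6.03 to 0.978, 0 and 1.03. At 24 h the named fall of the greatest size was nearest Ndufa8, a subunit of respiratory complex I (chr2:36023215-36023845), from 13.6 and 16.7 CPM to 1.75, 1.31 and 1.19 (log2 fold change −3.34, SE 0.39, adjusted p = 3.93e-07, edgeR).

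Rises after NANOG loss were fewer and smaller. A peak nearest Rreb1, a zinc-finger factor of the RAS pathway (chr13:37702429-37703473), went from 8.62 and 7.41 CPM at NT to 17.3, 24.6 and 16.5 at 6 h (log2 fold change 1.25, SE 0.29, adjusted p = 0.0132, edgeR) and also stood higher after OCT4 loss, going from 5.06 and 5.24 at NT to 19.2 and 18.1 at 24 h. In SOX2-FKBP the same peak held 14.5 and 16.7 CPM at NT and 3.04 and 3.84 at 24 h. At 24 h of NANOG loss the peak nearest Osbpl3 (chr6:50318411-50319188) went from 2.34 and 1.03 CPM to 9.03, 5.66 and 6.48, and those nearest Tpcn2 (chr7:145285287-145285734) and Pm20d2 (chr4:33197664-33198546) rose by log2 fold changes of 1.74 and 1.5 (adjusted p = 0.00294 and 0.0123, edgeR).

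The 6 members with the lowest SOX2 ratio, whose sequences stand above, took different courses in the other lines. The Kitl peak (chr10:100164155-100165177) held 8.86 and 10.6 CPM in untreated SOX2-FKBP cells and 2.5 and 1.83 at 0.5 h, then 1.2 and 0.9 at 2 h. It held 11.9 and 10.8 CPM at NT and 10.7 and 12.2 at 24 h in OCT4-FKBP, and 15.8 and 10.9 at NT and 20.2, 16.1 and 14.7 at 24 h in NANOG-FKBP. Late OCT4 libraries overlapped NT there, and no comparison outside the rule was called for it. The Cdh13 peak (chr8:118777235-118778264) went from 4.96 and 3.97 CPM to 0.328 and 0.6 at 2 h of SOX2 loss, with 5.31 and 5.24 at NT and 2.57 and 7.56 at 24 h in OCT4-FKBP, where the replicates stood on either side of NT.

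The Trpc6 peak (chr9:8462627-8463465) went from 7.4 and 8.73 CPM at NT to 1.98 and 2.38 at 0.5 h and 0.798 and 0.892 at 1 h, which was 10.5% of NT and the lowest share of the 6 at that time. It was the one of the 6 called lower after NANOG loss, from 17.1 and 11.4 CPM to 6.04, 4.67 and 7.39 at 2 h (log2 fold change −1.2, SE 0.28, adjusted p = 0.0207, edgeR). In OCT4-FKBP it went from 10.3 and 13.4 CPM at 6 h to 2.98 and 7.23 at 24 h (−1.19, adjusted p = 0.0101). The Dock2 peak (chr11:34738755-34739644) and the Cbln4 peak (chr2:171878951-171880136) likewise fell late after OCT4 loss, by 1.1 and 1.19 on the log2 scale (adjusted p = 0.0258 and 0.00226, edgeR). The Auts2 peak (chr5:131563346-131564467), with 18 and 18.2 CPM at NT and 0.985 and 2.9 at 2 h of SOX2 loss, had no call outside the rule.

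The 6 members with the highest NT level in SOX2-FKBP had Sox13, Slc12a7, Psme4, Adgrd1, Csgalnact1 and Mief2 as nearest genes. The distances to the starts ranged from 12086 bp (Mief2) to 173452 bp (Adgrd1), with 69152 bp for Sox13 and 109315 bp for Csgalnact1. The intergenic Sox13 peak (chr1:133491997-133493904) held 47.6 and 58.9 CPM at NT and 9.89 and 10.5 after 24 h of SOX2 loss, with a call from 6 to 24 h (log2 fold change −0.76, SE 0.18, adjusted p = 0.022, edgeR). The Csgalnact1 intron (chr8:68419885-68421294), in a gene for chondroitin sulfate synthesis, fell from 21.8 and 23.2 CPM at 1 h to 5.74 and 5.62 at 6 h (−1.98, SE 0.19, adjusted p = 1.45e-07) and kept 46.3 and 67.2 of its 78.2 and 71.1 CPM in OCT4-FKBP at 24 h. The Mief2 peak, in an exon of Top3a (chr11:60739572-60741116), stayed between 16 and 24.2 CPM at every time after SOX2 loss from 43.3 and 44.6 at NT, and went from 38.2 and 38.8 CPM at 6 h to 9.49 and 15.6 at 24 h of OCT4 loss (−1.58, SE 0.28, adjusted p = 0.000355).

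Promoters were rare among members (3.33%), as among the peaks lost in both lines (2.9%). The 4 with the highest level within 500 bp of a protein-coding start were those of Gnai2 (a G protein subunit), Abcg2 (a transporter), Pot1a (a telomere protein) and Plekhh1, at 44.2%, 43.9%, 48.8% and 41.1% of NT 2 h after SOX2 loss. The Gnai2 peak (chr9:107626629-107627762) went from 26.7 and 23 CPM at 1 h to 14 and 9.83 at 6 h (log2 fold change −1.07, SE 0.18, adjusted p = 0.00154, edgeR). The Plekhh1 promoter (chr12:79034950-79036159) was lower at 0.5 h and not lower still at 24 h: it held 22.7 and 22.9 CPM at NT, 10.6 and 10.2 at 0.5 h and 16.1 and 10.8 at 24 h of SOX2 loss, and in OCT4-FKBP it went from 11.8 and 16 at NT to 42.1 and 40.7 at 6 h.

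Of 212 list genes 15 (7.08%) had a member within 50 kb of a start, against 6.18% of 21924 protein-coding genes, and with 20 or 100 kb the counts were 8 and 34. By list, the naive pluripotency regulators held 2 of 27 (Sall4, and Trim28, a corepressor), the formative and primed epiblast list 2 of 16 (Foxd3 and Etv5) and the SOX family 3 of 17 (Sox5, Sox13 and Sox18). Mesoderm and definitive endoderm held 2 of 14 (Gsc and Cdx1) and FGF and ERK 2 of 18 (Dusp6 and Etv5). Primitive endoderm (Pdgfra, 1 of 14), LIF and BMP (Lifr, 1 of 16), Hippo and YAP (Wwtr1, 1 of 14) and chromatin regulators (Jarid2, 1 of 23) held 1 each. None of the 14 trophectoderm, 20 WNT and 16 NODAL and TGF-beta genes did. Proximity does not show that a member regulates a gene, and no expression was measured in these libraries. The gene nearest to the most members was Lifr, with 4, and 13 genes had 3, among them Sox13, Sox5, Auts2, Nrp2 and Ntrk2.

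The nearest of these members is at the promoter of Dusp6, the phosphatase that dampens ERK, 182 bp from its start (chr10:99265393-99265648). It held 8.37 and 9.36 CPM at NT and 3.65 and 3.47 at 0.5 h of SOX2 loss, then 3.61 and 3.6 at 2 h, 3.75 and 4.12 at 6 h and 1.85 and 2.67 at 24 h. The level changed little from 0.5 to 6 h. In NANOG-FKBP it went from 10.7 and 11 CPM to 4.44, 3.34 and 7.59 at 2 h, all below NT, with an adjusted p of 0.0781 (edgeR) that misses the threshold.

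The Sall4 peak (chr2:168769295-168769796), 1519 bp upstream, held 8.37 and 7.93 CPM at NT and 1.77 and 4.02 at 0.5 h, 2.85 and 3.1 at 2 h and 1.96 and 1.17 at 24 h of SOX2 loss. In OCT4-FKBP it held 8.21 and 6.75 CPM at NT and 6.78 and 5.58 at 24 h, which overlap, and it had no call outside the rule. Etv5, an ETS factor downstream of FGF signalling, held an intronic member 2060 bp from its start (chr16:22403716-22404047) that was lower in all 3 lines. It went from 5.06 and 7.46 CPM at NT to 2.3 and 2.9 at 2 h of SOX2 loss. After OCT4 loss it went from 9.71 and 10.2 at 2 h to 3.91 and 3.92 at 6 h and 0.949 and 1.31 at 24 h (24 h against 6 h −1.74, SE 0.41, adjusted p = 0.00655, edgeR). After NANOG loss it went from 7.74 and 7.24 CPM to 2.49, 3.34 and 4.1 at 2 h (−1.28, SE 0.33, adjusted p = 0.0383).

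The Gsc peak (chr12:104474462-104476250), 2659 bp upstream of the homeobox gene goosecoid, held 17.2 and 17.6 CPM at NT and 4.67 and 5.23 at 24 h of SOX2 loss (28.4% of NT), and 12.3 and 14.4 at NT and 12.6 and 10.2 at 24 h of OCT4 loss. It had no call outside the rule. The Lifr peak (chr15:7085034-7085556), 5270 bp upstream of the receptor of LIF, went from 11.7 and 13.8 CPM at NT to 2.17 and 3.73 at 24 h in SOX2-FKBP, and stood at 5.56 and 8.26 at NT and 2.3 and 4.93 at 24 h in OCT4-FKBP, again with no call. The intronic Sox13 peak (chr1:133396656-133398305) went from 28.3 and 29.8 CPM at NT to 13.5 and 15.7 at 0.5 h and 4.02 and 5.12 at 24 h of SOX2 loss. Between 6 and 24 h of OCT4 loss it fell from 29.6 and 28.1 to 18.3 and 12.8 (−0.82, SE 0.23, adjusted p = 0.0217, edgeR). In NANOG-FKBP its treated libraries held 26.5 to 36.6 CPM, against 32.1 and 26.2 at NT.

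**Figure D5:**
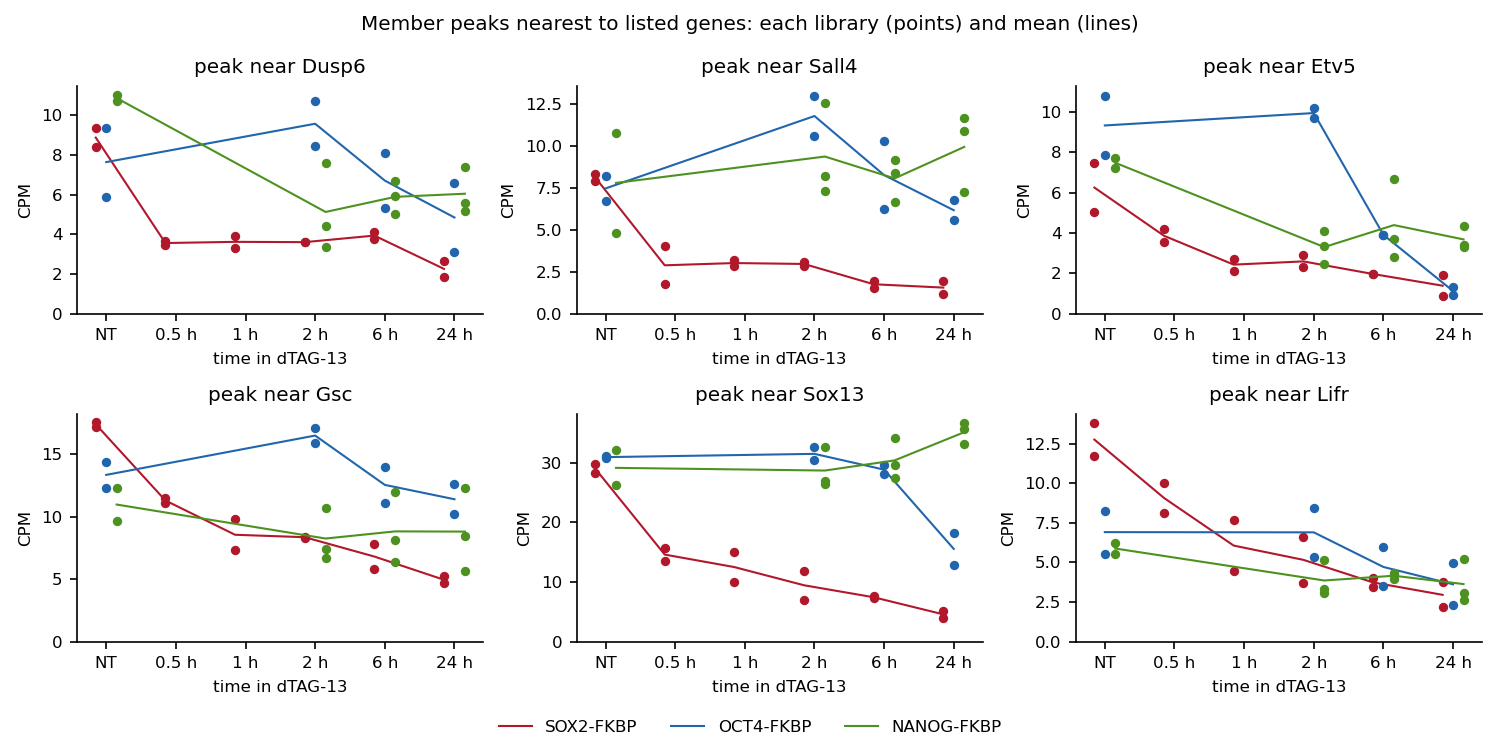
CPM (vertical axes) of the members nearest Dusp6, Sall4, Etv5, Gsc, Sox13 and Lifr against time in dTAG-13 (horizontal axes), with 1 point per library and lines through the group means of the 3 lines. All 6 were below both NT libraries at 0.5 h in SOX2-FKBP. In OCT4-FKBP the Etv5 peak was at 3.91 and 3.92 CPM by 6 h, while the Gsc peak held 12.6 and 10.2 CPM at 24 h.

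Further out, the Foxd3 peak (chr4:99674641-99675589) fell without NANOG: 14.5 and 21.7 CPM at NT became 3.29, 4.67 and 4.51 at 2 h (−2.23, SE 0.36, adjusted p = 0.000391, edgeR). Its calls at 6 and 24 h had log2 fold changes of −1.66 and −1.57. The peak 35859 bp from Sox18, in an intron of Prpf6 (chr2:181635485-181636840), went from 20.3 and 7.92 CPM to 4.62, 2.0 and 3.28 at 2 h of NANOG loss (−1.91, SE 0.39, adjusted p = 0.00501, edgeR), with NT replicates that differ widely, and by 2.81 on the log2 scale at 24 h. The Wwtr1 peak (chr3:57558579-57559475) stood higher at 2 and 6 h of OCT4 loss (9.25 and 11.8, then 8.49 and 14.8 CPM) than at NT (4.06 and 6.22) before it fell to 1.49 and 4.27 at 24 h (−2.0, SE 0.35, adjusted p = 0.000257). The Sox5 peak (chr6:144250554-144251658) held 10.6 and 18.5 CPM at NT and 28.9 and 36.8 at 6 h of OCT4 loss, and was called lower 24 h after NANOG loss (−0.94, SE 0.25, adjusted p = 0.0286, edgeR).

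The peak nearest Jarid2, a cofactor of Polycomb repressive complexes (chr13:44679267-44679862), fell between 6 and 24 h of OCT4 loss by 1.92 on the log2 scale (adjusted p = 0.000169, edgeR). It also fell in that step of SOX2 loss, from 4.48 and 4.96 CPM to 2.06 and 2.35 (−1.05, SE 0.27, adjusted p = 0.0404). The peaks near Pdgfra, Trim28 and Cdx1 had no call outside the rule.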

How the data were processed

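The authors aligned ATACseq reads to mm10 with BWA 0.7.17-r1188, filtered them by mapping quality (at least 10) with SAMtools 1.10 and removed duplicates with Picard 2.12.0. They called peaks on merged libraries and deposited the raw fragment counts per peak. Of 45 samples, 31 have counts and 14 were not analysed here.

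edgeR 4.0.16 (R 4.3.3, TMM, glmQLFit and glmQLFTest, no replicate block) tested 160432 peaks in 12 SOX2-FKBP libraries (over 10 counts in over 2 of them) and 166430 peaks in 27 libraries of 3 lines (over 10 counts in over 6). DESeq2 1.42.0, other size factors, count filters, subsets of samples and left-out libraries were alternatives. Scripts were tested on simulated data. Deviations from group means correlated between same-numbered libraries at 0.11 to 0.46 in SOX2-FKBP (all 15 pairs of times over 0.1) and 0.33 to 0.61 in OCT4-FKBP (all 6), and these numbers were taken to pair the samples. In NANOG-FKBP 4 of 6 exceeded 0.1 (−0.03 to 0.46), and they were not. The main tests left this pairing out, and fits with a replicate block were an alternative that changed many counts.

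Sequences are from GRCm38 and genes from GENCODE vM21, the build of the files (0 peaks end past a chromosome). BLAST+ 2.17.0 and networkx 3.6.1 grouped similar sequences. The rest used Python 3.11.15, pandas 2.3.3, numpy 2.4.6 and scipy 1.17.1. Named peaks are the 6 with the lowest SOX2 ratio, the 6 with the highest NT level, the nearest to each of up to 16 list genes, up to 4 promoters, those beside each threshold, up to 3 called per tested comparison and direction with the largest change and 1 direction in every library, and the peak the study draws as its SOX2 example (in Clstn2). The members, lists, patterns and rules were chosen with earlier results of these data known. The result of 1 list gene with its list, and 1 sequence, are not reported here.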

Additional observations from a re-analysis of the deposited data

Results flagged for a closer look

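A difference between the lines drew attention to 1 member, a copy in an intron of Gtf2i, a general transcription factor gene. Its change from 6 to 24 h differed between SOX2-FKBP and OCT4-FKBP by 3.08 on the log2 scale (SE 0.57, adjusted p = 0.0315, edgeR). The peak held 25.2% of NT at 6 h and 29.5% at 24 h of SOX2 loss, and 138% and 18.4% of NT after OCT4 loss. Of its 13 alternatives with an adjusted p, the call held in 6 and was lost in 7, with differences of 2.37 to 3.6 on the log2 scale. This single call comes from the fit without a replicate block, and the fit with a block called many more members, as given above. Of eligible peaks 0.0661% were called in the same direction, near the share that 1 of 1200 members makes. The cause was not tested.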

How the results depend on the processing

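The number of members followed the thresholds: 583 with an NT minimum of 8 CPM, 2009 with 2, 716 with a SOX2 ratio of at most 0.4, and 728 with both ratios in each replicate. The share left 24 h after SOX2 loss was then 22.1% (minimum of 2), 16% (ratio 0.4), 22.1% (replicate 1 alone) and 17.6% (each replicate). Members chosen in replicate 2 and read in replicate 1 stood at 36.7% (SOX2) and 122% (OCT4). Motif shares followed the window, with the whole peak and 100 bp giving 89.1% and 39% for SOX, 10.1% and 0.25% for the octamer, 5.0% and 0.333% for the composite, 53.3% and 28.5% for ZIC, 37% and 7.33% for ESRRB, 47.5% and 9.58% for CTCF and 41% and 9.5% for KLF. In eligible peaks the same windows gave 73.9% and 13.9% for SOX, 13.2% and 2.63% for the octamer, 5.86% and 1.26% for the composite, 43.3% and 8.52% for ZIC, 26.2% and 4.09% for ESRRB, 67.9% and 16.4% for CTCF and 50.4% and 9.55% for KLF, so the octamer and composite contrasts nearly vanish over whole peaks. Members passing in each replicate gave 0.137% for the composite and 41.8% for ZIC. Within 20 and 100 kb, 8 and 34 list genes had a member.

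DESeq2 called 112 members lower from 1 to 6 h and 18 from 6 to 24 h of SOX2 loss, 2 and 8 higher at 6 and 24 h of NANOG loss and 7 in the difference between lines. Requiring 10 counts in every library, which tests fewer peaks, gave 2 higher (SOX2, 24 h), 317 lower and 3 higher (OCT4), 9, 15 and 56 lower and, at 6 and 24 h, 0 and 4 higher (NANOG), and 4 in the difference. Fitting only the groups compared gave 2 (SOX2), 1 (OCT4) and 6 (NANOG, 24 h) higher and 3 in the difference. Total counts gave 2 (OCT4) and 7 (NANOG, 24 h) higher and 7 in the difference. Leaving out 1 library each gave 0 to 2, 50 to 131 and 6 to 13 lower in the 3 steps of SOX2 loss, 174 to 555 lower and 1 to 5 higher for OCT4, and 0 to 3 in the difference. For NANOG it gave 41 to 100, 67 to 141 and 107 to 225 lower and 0 to 1, 0 to 2 and 0 to 8 higher. Where this left a group with 1 library, the spread came from the other groups and that library was assumed to vary like them. The causes were not tested.

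With the replicate block, SOX2 loss gave 7, 367 and 122 lower and 4 higher (24 h), OCT4 loss 18 higher, and the difference 78, with 5 in the other direction. In NANOG-FKBP, whose samples share only a number, it gave 225, 258 and 307 lower and 20, 22 and 57 higher. The block changed no other call count by over 1.5 times.

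No result reversed. Over the 27 tested peaks that are named, 257 of 300 alternatives kept the call and 43 lost it. Alternatives chosen after seeing the data were leaving out the 3 shallow NANOG-FKBP libraries (100, 134 and 228 lower) and an aligned length of 150 or 80 bp, which gave 398 and 467 members in the similar-sequence group.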
